A study of Gallus gallus with 5 samples.

Results

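The 45 genes described here are nuclear genes of oxidative phosphorylation, taken from 6940 named genes in single-cell RNA-sequencing libraries of grafted chicken gastrulae. They are all genes whose symbols begin with NDUF, UQCR or ATP5, with SDH and a letter from A to D, or with COX and a digit from 4 to 8. They comprised 20 NDUF subunits of complex I, 3 subunits of complex II, 5 of complex III, 6 of complex IV, 7 genes of the ATP synthase and 4 assembly factors. The members were chosen by symbol, not by level.

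Oxidative phosphorylation takes place on the inner mitochondrial membrane. Complexes I and II pass electrons from NADH and succinate to ubiquinone, complex III hands them to cytochrome c, and complex IV delivers them to oxygen. The proton gradient built by complexes I, III and IV drives the ATP synthase. Each complex except complex II is assembled from proteins of both the nuclear and the mitochondrial genome, and the nuclear proteins include catalytic core subunits, small accessory subunits and assembly factors that are absent from the finished complex.

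Donor tissue came from embryos of a GFP transgenic chicken line and was placed at the matching site of wild-type hosts. The grafted region lay at 90% of the length of the primitive streak, where somite progenitors reside. Donors were HH4 (primitive streak stage, 20 hours of incubation) or HH8 (early somite stage, 30 hours of incubation), and every host was HH4 (20 hours). Tissue around the graft was collected at 0 hr or 3 hr, 5 to 10 grafts were pooled per sample, and each of the 4 conditions (HH4-HH4 and HH8-HH4, at 0 hr and 3 hr) is represented by 1 library. The grafts of HH4 tissue into HH4 hosts served as the stage-matched control. With 1 library per condition there is no replicate error, and no test or p-value is given. Intervals are 95% intervals that cover counting error only.

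Only barcodes with at least 2000 unique molecular identifiers (UMIs) were used, and barcodes with 3 or more eGFP UMIs were called graft and those with 0 host. There were 72 to 2029 graft barcodes and 181 to 1764 host barcodes per library, with median depths of 8838 to 47194.5 UMIs in the graft and 9039 to 40141 in the host. Of the barcodes in HH8-HH4 3 hr, 534 of 943 fell under 2000 UMIs. In HH4-HH4 3 hr, 1 graft barcode held 551194 UMIs, which was 13.0% of all graft UMIs of that library. Some results that involve this group are also given without it, and the others include it. The next graft barcode there held 248887 UMIs, where the largest host barcode held 134749. It was kept in the results given without the largest barcode. Libraries shared 0 to 2 barcodes, apart from the 2 deposited replicates of HH4-HH4 0 hr, which shared 2755 and are counted once. All 5 genes listed for HH8 posterior tissue, HOX and CDX genes among them, were higher in HH8 grafts than in their hosts at both times (median ratio 8.38 at 0 hr and 27.9 at 3 hr). The paper lists these genes as higher in HH8-derived cells of the same data, so this is no separate check of the labels. The list also had UMIs in the HH4-HH4 hosts, as given below. Genes of Hensen's node went the other way, with all 6 lower at 0 hr and all 5 with enough UMIs lower at 3 hr, and all 5 endoderm genes were lower at 0 hr and 4 of 5 at 3 hr. Graft and host in HH8-HH4 thus differed in markers of cell type as well as in stage, and the part of this in the results was not tested beyond the MSGN1 class.

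Levels are given as CPM, the UMIs of a gene divided by all UMIs of its group and multiplied by 1e+06. Reads come from the 3′ end, so a level does not scale with transcript length. The member with the highest level was ATP5G3, which encodes the proton-carrying c-ring subunit of the ATP synthase, and it led in all 8 groups, from 2515 CPM in the HH4-HH4 3 hr host to 3269 CPM in the HH4-HH4 0 hr graft. ATP5B, the catalytic beta subunit, lay between 2294 and 2778 CPM. In complex IV the small subunit COX6A1 was highest in all 8 groups, with 1725 to 2535 CPM. COX4I1, a nuclear-encoded regulatory subunit of complex IV, lay between 1593 and 1961 CPM.

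The leading member of complex III was UQCRHL, a hinge-protein gene, at 1342 to 1745 CPM. NDUFA4, named as a complex I gene and since found in complex IV, had the highest level among the NDUF subunits in all 8 groups, at 1022 to 1397 CPM. In complex II the membrane anchor SDHD led with 423 to 572 CPM, while the flavoprotein SDHA, which oxidises succinate, lay between 78.6 and 119 CPM. Among the assembly factors SDHAF2, which attaches the flavin to SDHA, led at 192 to 255 CPM, and NDUFAF5 had the lowest level of the 45 at 19.2 to 28.1 CPM. The 5 leading members held 30.6% to 36.4% of the summed level of all 45.

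The summed share of UMIs in the 45 genes lay within a narrow band of 2.86% to 3.67% across the 8 groups. In HH4-HH4 0 hr it was 3.20% in the graft and 3.22% in the host, a ratio of 0.995 (0.991 to 0.999). In HH8-HH4 0 hr it was 2.86% in the graft and 2.97% in the host, a ratio of 0.962 (0.959 to 0.966). The HH8 graft at 0 hr had the lowest share of the 8 groups.

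At 3 hr the share in HH8-HH4 was 3.33% in the graft and 3.67% in the host, a ratio of 0.906 (0.899 to 0.914). In HH4-HH4 3 hr it was 3.67% in the graft and 3.33% in the host, a ratio of 1.10 (1.09 to 1.11). This last value rested in part on the single largest barcode, whose own share was 4.64%. Without it the graft share was 3.52% and the ratio 1.06. With all barcodes kept, the median barcode had a share of 3.26% in the graft and 3.20% in the host.

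The ratio in HH4-HH4 3 hr also moved with HINTW, a gene of the W chromosome, which only female birds carry. Barcodes with at least 5000 UMIs were called HINTW-high from 500 CPM and HINTW-low under 200 CPM, and 64.3% of such graft barcodes and 48% of such host barcodes were HINTW-high in this library. Among HINTW-low barcodes the ratio of the summed share was 0.940, below 1. The graft share was 3.83% in its 45 HINTW-high barcodes, or 3.66% without the largest, and 3.20% in its 25 HINTW-low barcodes. Most other groups went the other way. HINTW-high barcodes had the lower share in the hosts of all 4 libraries, with 3.27% against 3.40% in the host of HH4-HH4 3 hr. They were also lower in the HH4-HH4 0 hr graft (3.13% against 3.33%) and, with 3 HINTW-high barcodes, in the HH8-HH4 3 hr graft. In the HH8-HH4 0 hr graft they were higher (2.98% against 2.86%). In HH8-HH4 the ratio among HINTW-low barcodes was 0.934 at 0 hr and 0.897 at 3 hr, so the HH8 graft stayed below its host.

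**Figure D1:**
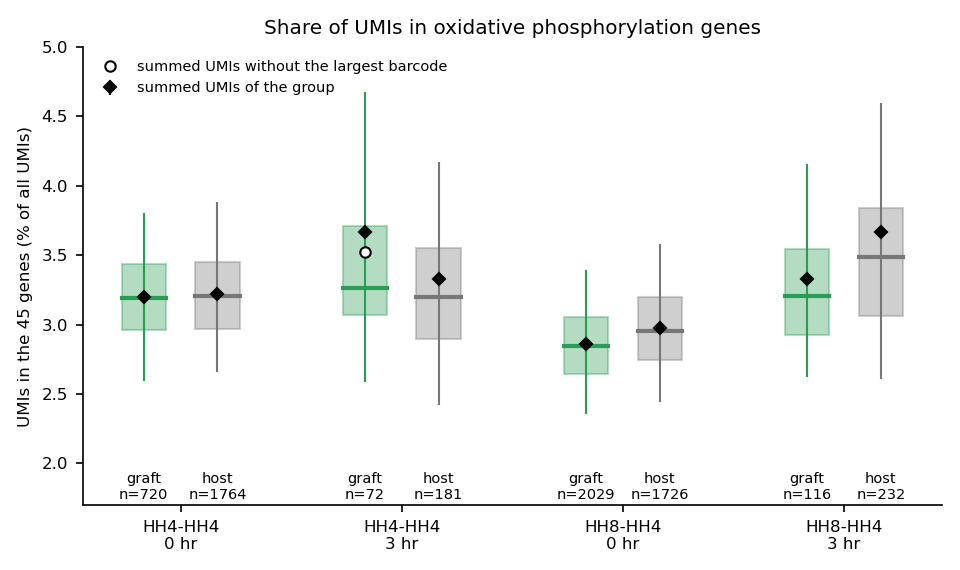
Share of UMIs in the 45 genes by group, in percent of all UMIs of a barcode or group (the axis starts at 1.7%). Boxes span the middle 50% of barcodes with the median as a line, whiskers reach from the 5th to the 95th percentile, black diamonds are the summed UMIs of a group with 95% counting intervals smaller than the symbols, and the open circle is the HH4-HH4 3 hr graft without its largest barcode. The diamond of the HH8 graft lies below that of its host at both times (2.86% against 2.97%, and 3.33% against 3.67%), and the boxes overlap in every library.

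Single barcodes varied much more than the groups did. The standard deviation of the share among barcodes of a group was 0.314 to 0.638 percentage points, where UMI sampling alone would give 0.104 to 0.192. Between the 5th and the 95th percentile, shares ran from 2.36% to 3.39% in the HH8 graft at 0 hr and from 2.45% to 3.57% in its host. Graft and host barcodes therefore overlapped over most of their range in this library.

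By complex, the lower share of HH8 grafts was not even. Complex II had the lowest graft to host ratio at both times, 0.868 at 0 hr and 0.792 at 3 hr. Complex I had 0.933 and 0.881, complex IV 0.937 and 0.872 and complex III 0.945 and 0.904. The ATP synthase genes stood at 1.02 and 0.959, and the assembly factors lay above 1 at both times, at 1.10 and 1.12. These lists include ATP5A1Z, ATP5I and NDUFAF2, which followed HINTW, as given below. At 0 hr 2.22% of graft and 44.8% of host barcodes were HINTW-high. ATP5A1Z was then at 1085 against 883 CPM and NDUFAF2 at 157 against 132 CPM. The part of HINTW in the values by complex was not tested.

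A member was counted as higher or lower in a comparison when its level was at least 25% above or at least 20% below that of the other group (the same fold in either direction) and both groups together held at least 100 UMIs of it, a minimum that all 45 members met in every comparison. In HH8-HH4 0 hr, 2 of 45 members were higher in the graft, beside 15.2% of the 4387 genes with enough UMIs, and 3 were lower, beside 29.1%. In HH8-HH4 3 hr, 2 were higher, beside 15.6% of 3542 genes, and 7 were lower, beside 22% of them. The median ratio of the members was 0.925 at 0 hr and 0.903 at 3 hr, beside 0.933 and 0.961 over all genes with enough UMIs. In both libraries a smaller share of the members than of all genes passed the fold in either direction. Counting error carries genes with few UMIs past the fold more easily, so these shares also depend on the level of a gene. Ribosomal protein genes, which held 27.0% of graft UMIs and 24.0% of host UMIs at 0 hr, had a median ratio of 1.11 at both times. With ribosomal protein genes and HINTW left out, the ratio of the summed share in HH8-HH4 was 0.995 at 0 hr and 0.939 at 3 hr.

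NDUFS3, a core subunit of the matrix arm of complex I, had one of the lowest ratios of the 45 in HH8 grafts at both times. Its level was 385 CPM in the HH8 graft against 553 CPM in the host at 0 hr, and 428 against 619 CPM at 3 hr. The ratios were 0.696 (0.675 to 0.718) and 0.690 (0.642 to 0.742). In HH4-HH4 the graft lay above the host, with 697 against 642 CPM at 0 hr and 530 against 424 CPM at 3 hr, with a ratio of 1.08 at 0 hr and one with an interval of 1.18 to 1.32 at 3 hr. At 0 hr the HH8 graft was the lowest of the 4 groups, and at 3 hr it was level with the HH4-HH4 host.

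UQCRB, the complex III subunit at the ubiquinone-binding site, showed the same order in HH8-HH4. It stood at 439 CPM in the graft and 607 CPM in the host at 0 hr, a ratio of 0.723 (0.702 to 0.745), and at 538 and 787 CPM at 3 hr, a ratio of 0.683 (0.641 to 0.729). COX7A2, a small subunit of complex IV, was at 547 and 682 CPM at 0 hr and at 784 and 1163 CPM at 3 hr, which gave 0.803 (0.782 to 0.825) and 0.674 (0.639 to 0.711). In HH4-HH4 the graft to host ratio was 0.940 and 1.10 for UQCRB and 0.962 and 1.04 for COX7A2. NDUFS3 and UQCRB were the only 2 of 45 members past the fold on the lower side in the HH8 graft at both times, beside 15.4% of 3542 genes.

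Other members were past the fold on the lower side at 1 time only. NDUFB5, an accessory subunit of complex I, had ratios of 0.785 at 0 hr and 0.807 at 3 hr. SDHA reached 0.849 and 0.748, UQCR11, a small subunit of complex III, 0.919 and 0.759, NDUFB1 0.896 and 0.785 and SDHD 0.867 and 0.798. UQCRFS1, the Rieske iron-sulphur protein that carries electrons within complex III, passed it at neither time, at 0.816 and 0.861. All 3 complex II genes were below 1 at both times, and SDHB, the iron-sulphur subunit, had the mildest ratio of them at 0 hr, 0.893.

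The member furthest above 1 in the HH8 graft was NDUFAF8, an assembly factor of complex I. Its level was 127 CPM in the graft and 93.0 CPM in the host at 0 hr, a ratio of 1.36 (1.28 to 1.45), and 147 and 104 CPM at 3 hr, a ratio of 1.42 (1.24 to 1.64). It was the only 1 of the 45 past the fold on the higher side at both times, beside 8.75% of 3542 genes. UQCR10, a small subunit of complex III, was at 1040 against 831 CPM at 0 hr (interval of the ratio 1.22 to 1.28) and had a ratio of 1.14 at 3 hr, so 2 subunits of the same complex, UQCRB and UQCR10, lay on opposite sides of 1. NDUFV3, an accessory subunit next to the NADH-binding site of complex I, had 1.16 and 1.24. ATP5S, a factor associated with the ATP synthase, was also counted as higher at 3 hr, but its interval of 0.987 to 1.59 includes 1, and the ratio at 0 hr was 1.01. NDUFC2, an accessory subunit of complex I, was at 1.17 at 0 hr and 0.932 at 3 hr. NDUFAF5, a complex I assembly factor with few UMIs, was at 1.19 (0.862 to 1.63) at 3 hr.

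**Figure D2:**
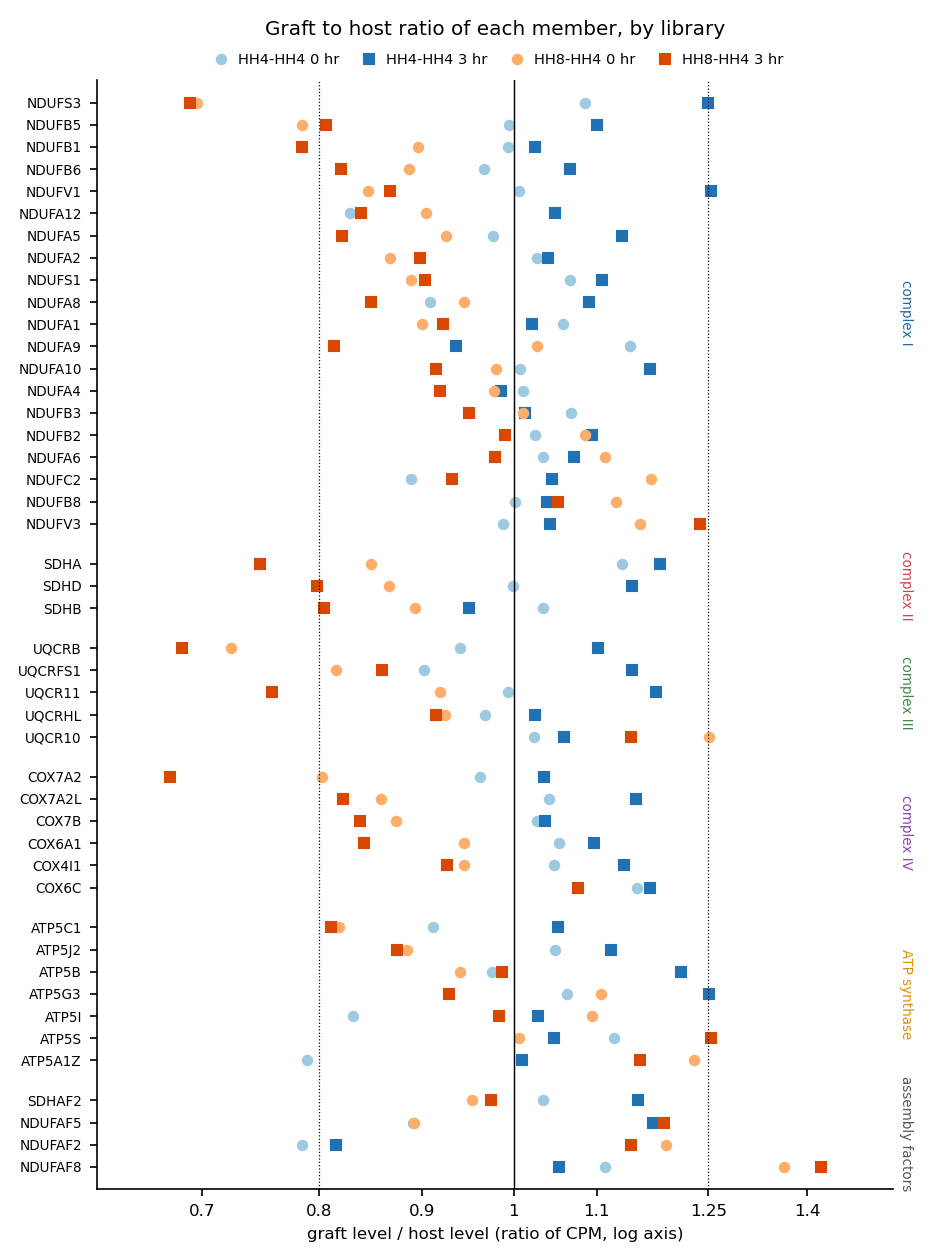
Ratio of the graft level to the host level for each of the 45 members, by complex and library, on a log axis, with the limits of the fold dotted. Orange points (HH8-HH4) lie left of 1 for most members of complexes I to IV. They lie right of 1 at both times for 8 members, among them UQCR10, NDUFV3, COX6C, ATP5A1Z, NDUFAF2 and NDUFAF8. Blue points (HH4-HH4) lie on both sides of 1 at 0 hr and mostly right of it at 3 hr. COX6C lies right of 1 in all 4 libraries. In HH4-HH4 NDUFS3 is above 1 at both times, where HH8-HH4 has 0.696 and 0.690.

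The HH8 ratios at 0 hr and 3 hr come from separate libraries, and the members kept much of their order between them. Pearson's r of the log2 ratios was 0.80 and Spearman's rho 0.78 across the 45 genes, which are not independent, and r over 3541 genes was also 0.80. Of the 45, 29 were below 1 at both times, beside 47.9% of 3542 genes, and 8 above 1 at both, beside 29%. The counting interval lay below 1 in both libraries for 25 members, beside 25.3% of all genes, and above 1 in both for 6, beside 16.3%. This interval is narrower for a gene with more UMIs, so the last counts also depend on the level of a gene. Intervals lay above 1 in both HH4-HH4 libraries and below 1 in both HH8-HH4 libraries for 7 of 45 members, beside 2.14% of 3508 genes. The reverse held for 1 member, beside 1.97%. Of the 7, COX7B no longer met the rule without the largest barcode, at 0.985 (0.953 to 1.02) in HH4-HH4 3 hr. In HH4-HH4 the corresponding r was 0.32 across members and 0.23 over 3825 genes. There 22 of 45 members were above 1 at both times, beside 764 of the 3825 genes. Only 1 member, NDUFAF2, was below 1 at both times, beside 1275 of these genes. Both counts rest in part on the largest barcode. Without it ATP5I (0.977), NDUFA12 (0.980), NDUFV3 (0.977), UQCRHL (0.991) and NDUFB1 (0.989) were also below 1 at 3 hr, as they were at 0 hr. Several of the 22 then fell below 1 at 3 hr, among them NDUFA6 (0.975), NDUFB3 (0.974) and ATP5S (0.941).

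**Figure D3:**
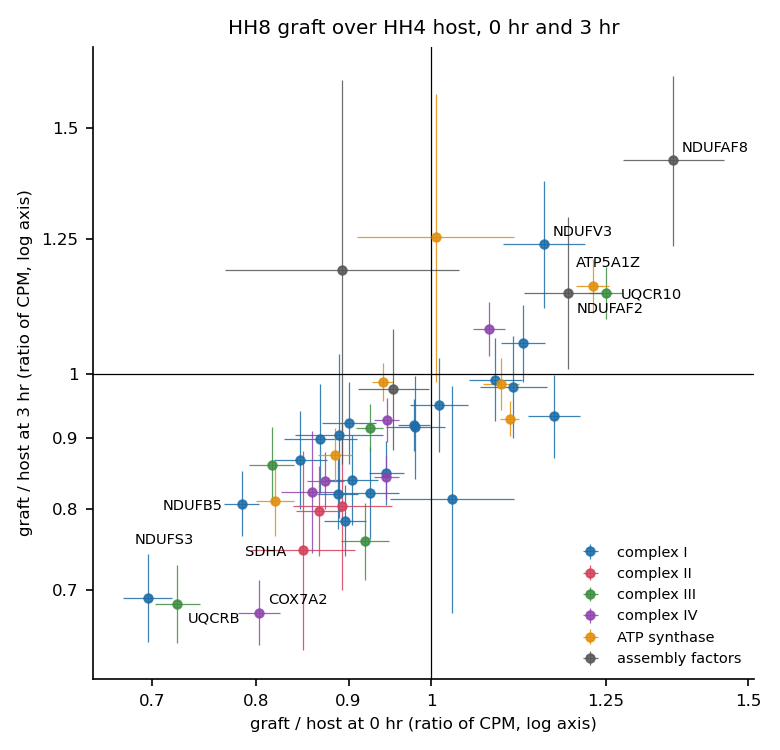
Graft to host ratio in HH8-HH4 at 0 hr (x axis) and 3 hr (y axis) for the 45 members, both axes logarithmic, coloured by complex, with 95% counting intervals. NDUFS3, UQCRB and COX7A2 lie lowest (0.674 to 0.690 at 3 hr) and NDUFAF8 highest (1.36 and 1.42), and 29 members lie at the lower left, below 1 on both axes.

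The differences were also taken within 1 cell class and within 1 HINTW class. MSGN1 marks ingressed paraxial mesoderm, and 525 graft and 561 host barcodes of HH8-HH4 0 hr had 3 or more UMIs of it and fewer of SOX17, CHRD and SOX3. Among them the summed share was 2.80% in the graft and 2.87% in the host, a ratio of 0.976. NDUFS3 had a ratio of 0.773 (0.728 to 0.822), UQCRB 0.771 (0.729 to 0.816), COX7A2 0.782 (0.743 to 0.824) and NDUFAF8 1.54 (1.36 to 1.74), so each of these 4 genes differed in the same direction within this class. The NDUFS3 and UQCRB ratios were nearer to 1 than over all barcodes, and those of COX7A2 and NDUFAF8 were further from it. These 4 genes were named for their ratios over all barcodes, of which this class is a part, so this is no separate check.

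Among HINTW-low barcodes, NDUFS3 stood at 0.631 at 0 hr and 0.689 at 3 hr in HH8-HH4. UQCRB was at 0.657 and 0.684, COX7A2 at 0.756 and 0.675, and NDUFAF8 at 1.40 and 1.43. These ratios were close to those over all barcodes or further from 1. They are no separate check, since 1827 of 1936 graft barcodes with at least 5000 UMIs at 0 hr and 105 of 110 at 3 hr were HINTW-low. The definition of the graft mattered at 3 hr: counting barcodes with 1 or 2 eGFP UMIs as graft raised its number from 116 to 177, brought the summed ratio to 0.956 and left 0 members lower. In these droplet libraries 1 or 2 eGFP UMIs can also be free RNA.

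In HH4-HH4, where graft and host were of the same stage, 0 of 45 members were higher in the graft at 0 hr, beside 7.29% of 4414 genes, and 2 were lower, beside 8.9%. The median ratio of the members was 1.01. Both lower members, NDUFAF2 with 104 against 133 CPM and ATP5A1Z with 811 against 1028 CPM, also followed HINTW. Of the remaining members, NDUFA12, an accessory subunit of complex I, was lowest at 0.829, and COX6C, a small subunit of complex IV, was highest at 1.15 (1.13 to 1.18), with 1113 against 966 CPM.

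At 3 hr, 3 members were higher in the HH4-HH4 graft, beside 6.88% of 3840 genes, and 0 were lower, beside 17.3%. They were NDUFV1, which binds NADH, at 473 against 377 CPM, ATP5G3 at 3147 against 2515 CPM and NDUFS3 at 530 against 424 CPM, each just past the fold. Without the largest barcode 0 members passed the fold, and these 3 stood at 1.18, 1.20 and 1.24. Among HINTW-low barcodes NDUFS3 stood at 0.984. The lowest ratios were those of NDUFAF2 (0.816) and NDUFA9 (0.936), and SDHB was at 101 against 106 CPM. SDHA was above 1 at both times, at 1.13 and 1.18, and ATP5B was at 0.975 at 0 hr and 1.21 at 3 hr, or 1.13 without the largest barcode. Marker lists moved with this group too. Endoderm markers had 4 of 5 genes higher in the graft and a median ratio of 4.85, and their summed level had a ratio of 3.92. The summed level of the epiblast and early neural list had a ratio of 0.487, ingressed mesoderm 0.717, the HH8 posterior list 0.742 and blood 1.65, and the cell cycle lists were at 0.856 for S phase and 0.874 for G2M. Their part in these values was not tested.

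Set directly against the HH4 graft, the HH8 graft had the lower share at both times. Different libraries are compared here, so stage cannot be told apart from library. At 0 hr the ratio of the summed share was 0.895 (0.891 to 0.898), and the hosts of the same libraries, both HH4, differed by 0.925. At 3 hr it was 0.907 (0.901 to 0.914), or 0.945 without the largest barcode, with 1.10 for the hosts. Among HINTW-low barcodes it was 1.05 at 3 hr, on the other side of 1.

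At 0 hr, 3 of 45 members were higher in the HH8 graft, beside 20.3% of 4322 genes, and 10 were lower, beside 26.2%. NDUFS3 was furthest down, at 385 against 697 CPM (0.552), followed by UQCRB (0.651), COX7A2 (0.692), NDUFB5 (0.737) and COX7B (0.772). The 3 higher members were NDUFAF2 (1.51), NDUFAF8 (1.37) and ATP5A1Z (1.34), and UQCR10 (1.14) and NDUFV3 (1.13) came next. NDUFAF2 and ATP5A1Z also followed HINTW, and the 2 grafts differed in HINTW. At 0 hr 2.22% of HH8 and 66.3% of HH4 graft barcodes were HINTW-high, and at 3 hr 2.73% and 64.3%. The part of this in their ratios at either time was not tested. At 3 hr, 2 were higher, beside 25.7% of 3445 genes, and 10 were lower, beside 18.1%, or 3 and 5 without the largest barcode. The lowest there were COX7A2L, a factor in the assembly of respiratory supercomplexes, at 0.712, COX7B at 0.714, SDHD at 0.740, NDUFA1 at 0.761 and COX6A1 at 0.763. The highest were NDUFAF2 at 1.65, ATP5A1Z at 1.58, SDHB at 126 against 101 CPM, ATP5S at 1.16 and SDHAF2 at 1.12. NDUFS3 had a ratio of 0.807 at 3 hr. The hosts of these libraries, both HH4, differed for the same genes, with ratios of 0.861 for NDUFS3, 0.846 for UQCRB and 0.859 for ATP5A1Z at 0 hr and of 1.46, 1.46 and 1.38 at 3 hr, so hosts of the same stage also differed between libraries.

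The levels at 3 hr were compared with those at 0 hr. Time cannot be told apart from library, and the 3 hr libraries were also deeper, with host medians of 40141 against 14574 UMIs in HH4-HH4 and 20814 against 9039 in HH8-HH4. The summed share was higher at 3 hr in all 4 comparisons, by a factor of 1.04 in the HH4-HH4 host, 1.15 in the HH4-HH4 graft (1.10 without the largest barcode), 1.23 in the HH8-HH4 host and 1.16 in the HH8 graft. Graft and host of a graft type share their libraries, so these are not 4 separate observations. The mean over barcodes, which gives each barcode the same weight, put the HH4-HH4 host at 1.00 and the HH8-HH4 host at 1.18. Among HINTW-low barcodes the HH4-HH4 graft was at 0.961, below 1.

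In the HH8-HH4 host 21 of 45 were higher at 3 hr, beside 11.2% of 4171 genes, and 0 were lower, beside 20.3%. In the HH8 graft 16 were higher, beside 20.2% of 4105 genes, and 0 were lower, beside 17.1%. In the HH4-HH4 host 12 were higher, beside 16.6% of 4387 genes, and 4 were lower, beside 23.6%. At matched depth, among barcodes of 20000 to 40000 UMIs, this host had 12 higher, beside 20% of 3658 genes, and 8 lower, beside 21%. In the HH4-HH4 graft 17 were higher, beside 14.9% of 3961 genes, and 4 were lower, beside 29.3%. Without the largest barcode 15 were higher and 3 lower there.

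In all 4 groups 9 members were higher at 3 hr, beside 1.77% of the 3845 genes with enough UMIs in each. They were NDUFA1, NDUFA2, NDUFA6, NDUFB2, NDUFB3, NDUFV3, UQCR10, COX7B and ATP5J2. All 9 also passed the fold in the HH4-HH4 graft without its largest barcode. The 4 groups are not separate observations, since graft and host of a graft type share their libraries.

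NDUFA1, an accessory subunit in the membrane arm of complex I, was at 385 CPM at 0 hr and 688 CPM at 3 hr in the HH4-HH4 host, a ratio of 1.79 (1.73 to 1.85). It was at 384 and 580 CPM in the HH8-HH4 host (1.51), at 407 and 703 CPM in the HH4-HH4 graft (1.73) and at 345 and 535 CPM in the HH8 graft (1.55). Every 3 hr group lay above every 0 hr group for this gene. COX7B, a small subunit of complex IV, behaved likewise, with 727 to 941 CPM in the 0 hr groups and 1067 to 1495 CPM in the 3 hr groups, and the ratio was 1.57 in the HH4-HH4 host and 1.53 in the HH8-HH4 host. NDUFA6 had 1.64 and 1.56 and NDUFA2 1.65 and 1.51 in these hosts.

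Other rises were larger in 1 graft type. In the HH8-HH4 host ATP5I, subunit e of the ATP synthase, had a ratio of 1.74, COX7A2 of 1.71 and UQCR11 of 1.57, and in the HH4-HH4 host they stood at 1.24, 1.15 and 1.07. NDUFAF8 was the reverse, with 1.77 in the HH4-HH4 host and 1.11 in the HH8-HH4 host. NDUFC2 had 1.43 and 1.52. In the HH8-HH4 host the lowest ratios were those of ATP5S (0.895), COX7A2L (0.919) and SDHD (0.976). In the HH8 graft the highest were ATP5I and NDUFA2, both at 1.57, and the lowest were COX7A2L (0.881), SDHD (0.899) and ATP5G3 (0.914).

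Some members were below 1 at 3 hr in the HH4-HH4 host. NDUFS3 was at 642 CPM at 0 hr and 424 CPM at 3 hr there, a ratio of 0.661 (0.637 to 0.686). NDUFS1, the iron-sulphur core subunit of complex I, had 0.733, SDHA 0.750, UQCRB 0.751 and UQCRFS1 0.801, and NDUFA8 (0.815), NDUFB5 (0.821) and COX4I1 (0.850) were also below 1. In the HH8-HH4 host the first 5 of these stood at 1.12, 0.991, 1.07, 1.30 and 1.19. NDUFS3, UQCRB and UQCRFS1 thus lay on opposite sides of 1 in the 2 hosts. So did SDHA, but its interval in the HH8-HH4 host includes 1. In the HH4-HH4 graft NDUFS1 (0.760), NDUFS3 (0.761), SDHA (0.783) and SDHB (0.786) were lowest, and without the largest barcode NDUFS1 was at 0.818 and SDHA at 0.816.

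**Figure D4:**
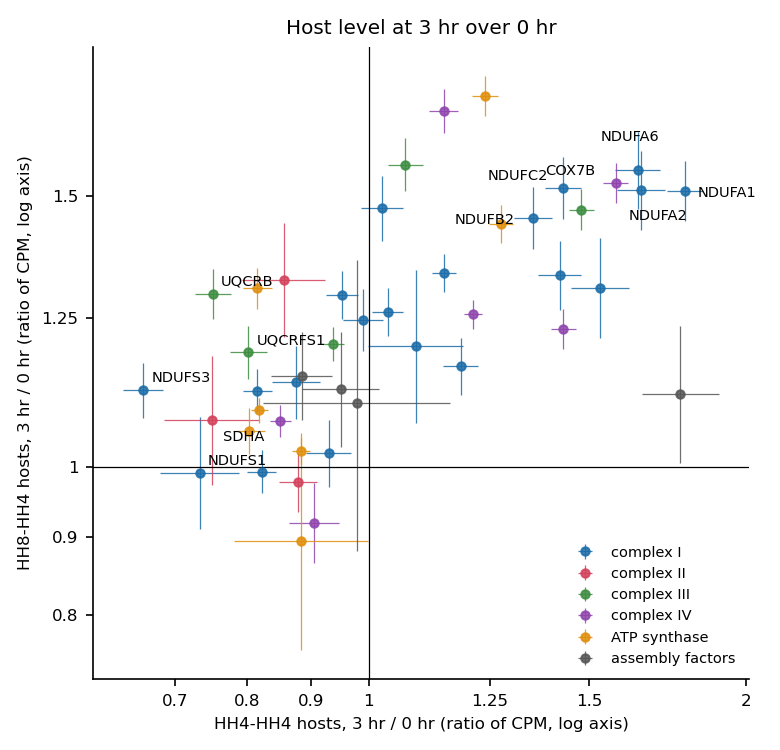
Ratio of the 3 hr level to the 0 hr level in host barcodes of HH4-HH4 (x axis) and HH8-HH4 (y axis) for the 45 members, both axes logarithmic, with 95% counting intervals. NDUFA1 (1.79 and 1.51), NDUFA6 (1.64 and 1.56) and COX7B (1.57 and 1.53) lie at the upper right, and NDUFS3 (0.661 and 1.12) lies at the left.

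The 2 hosts share no library, and across the 45 members the log2 ratios of 3 hr to 0 hr had a Pearson's r of 0.63 between them and a Spearman's rho of 0.64, beside an r of -0.10 over 4165 genes. Between the 2 grafts r was 0.70 across the members and 0.03 over 3848 genes. These are descriptions across genes, which are not independent. In HH4-HH4, 20000 to 40000 UMIs were held by 255 host barcodes at 0 hr and 71 at 3 hr, and at this matched depth the ratio of the summed share was 0.996. In HH8-HH4, 10000 to 20000 UMIs were held by 626 and 33 host barcodes, and the ratio was 1.22, with 18 members higher, beside 16.4% of 3661 genes, and 1 lower, beside 24.8%. From 2000 to 10000 UMIs the gap was smaller, with 2.98% in 1088 host barcodes at 0 hr and 3.14% (3.09% to 3.20%) in 76 at 3 hr. The share in the HH8-HH4 3 hr host was 3.61%, 3.68% and 3.83% in the deeper ranges, so its rise over time differed with depth. Member ratios at matched depth do not include the range under 10000 UMIs. At matched depth NDUFA1 had ratios of 1.69 and 1.66. In both hosts 10 members then passed the fold on the higher side, beside 4.3% of 3604 genes, and 8 of the 9 members above were among them, all but ATP5J2.

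The share of ribosomal protein genes was also higher at 3 hr, from 24.6% to 28.2% in the HH4-HH4 host and from 24.0% to 25.5% in the HH8-HH4 host. Cell type markers moved between the hosts of the 2 times as well. In the HH4-HH4 host the summed level of the endoderm list was 474 CPM at 0 hr and 91.1 CPM at 3 hr, Hensen's node 1131 and 751, ingressed mesoderm 1668 and 2539 and the HH8 posterior list 221 and 1074. In the HH8-HH4 host it was 746 and 473 CPM for endoderm, 988 and 2155 for Hensen's node, 2267 and 1170 for ingressed mesoderm and 504 and 202 for the HH8 posterior list. The last 3 lists went in opposite directions in the 2 hosts, and the part of any of these lists in the members' values was not tested.

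Of the 45 members, 3 were lower in HINTW-high than in HINTW-low barcodes in the hosts of all 4 libraries, beside 3.06% of 3102 genes. They were ATP5A1Z, the Z-chromosome copy of the alpha subunit of the ATP synthase, ATP5I, and NDUFAF2, an assembly factor of complex I. In the HH4-HH4 0 hr host, ATP5A1Z stood at 616 CPM in HINTW-high and 1136 CPM in HINTW-low barcodes, a ratio of 0.542 (0.522 to 0.562). In the other hosts the ratio was 0.499, 0.578 and 0.583, given first for HH4-HH4 3 hr and then for the HH8-HH4 hosts by time. In the same order of 4 hosts, ATP5I had ratios of 0.545, 0.552, 0.527 and 0.565, and NDUFAF2 of 0.553, 0.578, 0.430 and 0.553. Female birds carry a single Z chromosome and males a pair.

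No other member came near these values in the 4 hosts. The other 42 had ratios between 0.728 and 1.44 with medians of 0.967 to 1.00, and 38 members stayed within the fold in every host, beside 57.3% of 3102 genes. In the HH4-HH4 0 hr graft the 3 genes had ratios of 0.573, 0.596 and 0.591. In the HH4-HH4 3 hr graft they were 0.676 for ATP5A1Z, 0.851 for ATP5I and 0.636 for NDUFAF2, and in the HH8-HH4 0 hr graft, with 43 HINTW-high barcodes, 0.820, 0.900 and 0.815.

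**Figure D5:**
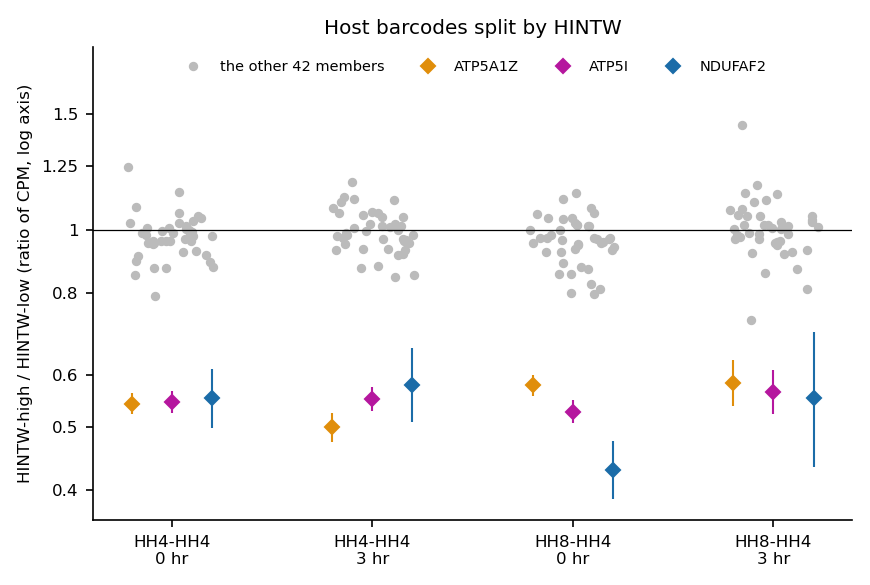
Ratio of the level in HINTW-high barcodes to that in HINTW-low barcodes for the 45 members in the hosts of the 4 libraries, on a log axis. ATP5A1Z, ATP5I and NDUFAF2 lie between 0.430 and 0.583 in every library and the other members between 0.728 and 1.44.

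In the 0 hr libraries the graft to host ratios of these 3 genes moved with the share of HINTW-high barcodes. In HH4-HH4 0 hr, 66.3% of graft and 19.0% of host barcodes were HINTW-high, and ATP5A1Z had a graft to host ratio of 0.790 (0.770 to 0.809), ATP5I of 0.832 and NDUFAF2 of 0.784 (0.732 to 0.840). In HH8-HH4 0 hr, 2.22% of graft and 44.8% of host barcodes were HINTW-high, and the ratios were 1.23 (1.20 to 1.26), 1.09 and 1.19. At 3 hr not all of them did. In HH4-HH4 3 hr, with 64.3% of graft and 48% of host barcodes HINTW-high, the ratios were 1.01 for ATP5A1Z, 1.03 for ATP5I and 0.816 for NDUFAF2. In HH8-HH4 3 hr, with 2.73% and 24.7%, they were 1.16, 0.984 and 1.14. Among HINTW-low barcodes ATP5A1Z had graft to host ratios of 1.00, 0.997, 1.01 and 1.06 in the 4 libraries, so its level there was nearly equal in graft and host. NDUFAF2 stood at 0.965, 0.877, 0.899 and 1.03, and ATP5I at 1.03, 0.898, 0.871 and 0.900.

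The summed share was also taken among host barcodes positive for a single marker. In HH4-HH4 0 hr it was 3.18% in barcodes with MSGN1 (ingressed mesoderm), 3.21% with SOX17 (endoderm), 3.32% with CHRD (Hensen's node) and 3.16% with SOX3 (epiblast). In HH8-HH4 0 hr it was 2.87%, 3.05%, 3.08% and 2.97% in the same order, so Hensen's node barcodes had the highest share in both, and the marker classes of 1 host spanned a range wider than the difference between graft and host in the same library. At 3 hr the share was 3.24% in 66 barcodes with MSGN1 and 3.69% in 29 with SOX3 in the HH4-HH4 host, and in 73 barcodes with CHRD in the HH8-HH4 host its interval was 3.76% to 3.83%. Of the 1764 HH4-HH4 host barcodes, 740 were positive for more than 1 of the 4 markers and were not placed in a class. Doublets were not removed.

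The other genes of energy metabolism were counted in lists of known function, by the same fold and against the same shares of all genes in HH8-HH4, 15.2% higher and 29.1% lower at 0 hr and 15.6% and 22% at 3 hr. Several of the lists hold few genes, and nothing is read from a count near these shares. In HH8-HH4, 0 of 10 genes of electron carriers and ATP export were higher in the graft and 6 were lower at 0 hr, with a median ratio of 0.783, and 0 and 5 at 3 hr, with a median of 0.834. They included COQ7, which acts in ubiquinone synthesis, at 0.716 and 0.663, and SLC25A4, an ADP/ATP carrier, at 0.748 and 0.791. CYCS, the electron carrier cytochrome c, was at 0.872 and 0.721. VDAC1, the outer membrane porin, was at 0.241 and 0.336, but at only 7.14 and 29.6 CPM in graft and host at 0 hr.

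Of 18 genes of pyruvate entry and the TCA cycle, 0 were higher and 5 lower at 0 hr (median 0.905), and 1 and 4 at 3 hr (median 0.931). Of 15 assembly factors outside the 45, 2 were higher and 3 lower at 0 hr (0.930), and 2 and 0 at 3 hr (1.04). COX17, the copper chaperone of complex IV, had ratios of 1.55 and 1.42 and COX20, a chaperone of its assembly, 1.52 and 1.38, on the same side as NDUFAF8. Among 5 regulators of mitochondrial gene expression, 0 were higher and 1 lower at 0 hr, and 1 and 1 at 3 hr.

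Among glycolysis genes, at 0 hr 3 of 18 were higher and 4 lower (median 0.980), and at 3 hr 6 of 15 were higher and 0 lower (1.17). LDHB, the lactate dehydrogenase subunit typical of heart, was at 4670 CPM in the graft and 2101 CPM in the host at 0 hr, a ratio of 2.22, and at 2.13 at 3 hr. LDHA, the other main subunit, had a ratio of 0.225 at 0 hr and 2.07 at 3 hr, so its direction was not the same in the 2 libraries. Of the hypoxia-responsive genes 3 of 4 were higher and 0 lower at 0 hr, and 2 of 3 and 0 at 3 hr, with VEGFA, a secreted growth factor of blood vessels, at 2.00 and 2.34.

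Genes of the cell cycle were counted in the same way. Of 34 G2M genes 1 was higher and 14 lower in the HH8 graft at 0 hr, and of 33 genes 1 and 9 at 3 hr. The lower side was above the share of all genes at 0 hr and near it at 3 hr. Of the S phase genes 0 of 22 were higher and 7 lower at 0 hr, and 3 of 21 and 2 at 3 hr, with the lower side near the share of all genes at 0 hr and under it at 3 hr. In the stress and dissociation list 1 of 9 was higher and 3 lower at 0 hr, and 2 and 2 at 3 hr. Their part in the members' ratios was not tested.

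Across barcodes of 1 group, the share of the 45 genes went with the share of ribosomal protein genes, with Spearman's rho of 0.24 to 0.71 over the 8 groups, and with glycolysis, with 0.19 to 0.50. It went against the G2M share, with -0.22 to -0.53. With the number of UMIs it ranged from -0.06 to 0.41. These are descriptions over barcodes that share a library, and the shares are parts of 1 total.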

How the data were processed

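The authors deposited 10x 3′ single-cell matrices of UMI counts per gene and barcode, and the submitters' processing notes name CellRanger 6.1.1 and galGal6. Further filters are not given in the sources used here. Of the 2 replicates of HH4-HH4 0 hr, which share 2755 barcodes, only replicate 2 was used, because the identifiers of replicate 1 carry no gene names. The eGFP counts defined graft and host and were left out of the genes compared. Doublets were not called or removed. The counts were summed over the barcodes of a group and divided by its total, with exact binomial intervals (Clopper-Pearson) for shares and exact conditional intervals for ratios, at 95%. A gene counted as higher or lower at 25% above or 20% below the other group with at least 100 UMIs in both groups together. Named in each comparison are mainly the 5 members with the highest and the 5 with the lowest ratio, and the member with the highest level of each complex. The members and lists were chosen with earlier results of these data known. The calculation was tested on simulated counts that held counting error only, without the spread between barcodes. Of genes given a true fold of 1.25, 44.6% to 57.4% were called in the graft to host comparisons of the 4 libraries. Among unchanged genes 1.88% to 5.64% were called. Alternatives changed the minimum depth, the eGFP limit, the fold, the UMI minimum, the total and the depth range, and 2 of them, HINTW-low barcodes and leaving out the barcode over 500000 UMIs, were chosen after seeing the data. Python 3.11.15, numpy 2.4.6, scipy 1.17.1, pandas 2.3.3 and matplotlib 3.10.9 were used.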

Additional observations from a re-analysis of the deposited data

Results flagged for a closer look

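For 8 members the graft to host ratio had a counting interval on one side of 1 in both HH4-HH4 libraries and on the other side in both HH8-HH4 libraries. The difference between the graft types was not tested. Ratios are given first for the HH4-HH4 libraries by time and then for the HH8-HH4 libraries by time. COX7B, a small subunit of complex IV, had 1.03, 1.04, 0.874 and 0.838. COX6A1, another small subunit of complex IV, had 1.05, 1.10, 0.944 and 0.843. COX7A2L, the supercomplex factor, had 1.04, 1.15, 0.859 and 0.823. SDHA, the flavoprotein of complex II, had 1.13, 1.18, 0.849 and 0.748. NDUFS3, the core subunit of complex I, had 1.08, 1.2501, 0.696 and 0.690. COX4I1, the regulatory subunit of complex IV, had 1.05, 1.13, 0.945 and 0.927. ATP5J2, subunit f of the ATP synthase, had 1.05, 1.12, 0.885 and 0.875.

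These 7 of 45 members were above 1 in HH4-HH4 and below 1 in HH8-HH4, beside 2.14% of 3508 genes by the same rule. NDUFAF2, the complex I assembly factor, was the reverse, with 0.784, 0.816, 1.19 and 1.14, beside 1.97% of those genes. Intervals are narrower for genes with more UMIs, which makes this rule easier to meet at a high level. The level of NDUFAF2 followed HINTW, and among HINTW-low barcodes its ratios were 0.965, 0.877, 0.899 and 1.03. Among HINTW-low barcodes of HH4-HH4 3 hr NDUFS3 was also just below 1, as given above, so it was not above 1 there. For the rest of the 7 members HINTW-low ratios are not given here. Without the largest barcode COX7B in HH4-HH4 3 hr was at 0.985 (0.953 to 1.02), no longer above 1, and SDHA was at 1.23. Among MSGN1 barcodes of HH4-HH4, ratios by time were 1.08 and 0.921 for COX7B, 1.05 and 0.943 for COX6A1 and 0.860 and 1.14 for COX7A2L. They were 0.983 and 1.02 for SDHA, 1.04 and 1.14 for NDUFS3, 1.01 and 1.02 for COX4I1 and 1.07 and 0.988 for ATP5J2. These ratios rest on 102 graft and 273 host barcodes at 0 hr and on 24 and 66 at 3 hr. No member of the 7 had an interval above 1 at both times in this class. In HH8-HH4 0 hr all 7 were below 1 in this class, but the interval of COX7A2L (0.918 to 1.06) includes 1.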

How the results depend on the processing

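With 1 library per condition, no library could be left out and no spread between replicates is known. No paired analysis was possible because each condition has 1 library, and a repeat with replicate 1 was not run because its identifiers carry no gene names. The HH8 graft at 3 hr rests on 116 barcodes. Of 44 alternative values of the graft to host ratios of the summed share, 28 moved by less than their counting interval, 13 by more, and 3 went to the other side of 1. With ribosomal protein genes and HINTW out of the total, HH4-HH4 0 hr graft over host crossed to 1.00, HH8-HH4 graft over host was 0.995 at 0 hr and 0.939 at 3 hr, HH8 over HH4 graft 0.916 and 0.898, and 3 hr over 0 hr 1.09 (HH4-HH4 host), 1.21 (HH4-HH4 graft), 1.254 (HH8-HH4 host) and 1.18 (HH8 graft). In HINTW-low barcodes graft over host was 1.02 and 0.940 in HH4-HH4, both on the other side of 1, and 0.934 and 0.897 in HH8-HH4. HH8 over HH4 graft was 0.859 at 0 hr and crossed to 1.05 at 3 hr, and 3 hr over 0 hr was 1.04 (HH4-HH4 host), 0.961 (HH4-HH4 graft, crossing 1) and 1.22 (HH8-HH4 host). Members higher and lower were then 2 and 1 for HH4-HH4 at 0 hr, 0 higher there at 3 hr, 1 and 6 for HH8-HH4 at 0 hr and 4 higher there at 3 hr. Without the barcode over 500000 UMIs the HH4-HH4 3 hr ratio was 1.06 with 0 members higher, HH8 over HH4 graft at 3 hr 0.945 and the HH4-HH4 graft over time 1.10. The mean of barcode shares gave graft over host at 3 hr of 1.05 (HH4 donors) and 0.930 (HH8 donors), 0.961 (HH8 over HH4 graft, 3 hr), and over time 1.00 and 1.06 (HH4-HH4 host and graft) and 1.18 and 1.14 (HH8-HH4). Barcodes with 10000 to 40000 UMIs gave graft over host of 1.08 (HH4 donors at 3 hr) and 0.973 (HH8 donors at 0 hr), 0.903 and 0.960 (HH8 over HH4 graft), and 1.00 and 1.09 (HH4-HH4 host and graft over time). Thinning to 2000 UMIs gave graft over host at 3 hr of 1.05 (HH4 donors) and 0.922 (HH8 donors), 0.973 (HH8 over HH4 graft, 3 hr), and in the same groups over time 1.00, 1.06, 1.20 and 1.15. Graft from 10 eGFP UMIs gave 0.969 (HH8-HH4 0 hr), 0.901 (HH8 over HH4 graft, 0 hr) and 1 member higher in HH4-HH4 3 hr. Graft from 1 eGFP UMI gave 0.956 (HH8-HH4 3 hr), 0.901 and 0.961 (HH8 over HH4 graft) and 1.22 (HH8 graft over time), with 0 members lower in HH4-HH4 at 0 hr and 0 higher at 3 hr, and with 1 higher in HH8-HH4 at 0 hr and 0 lower at 3 hr. At least 5000 UMIs gave 1.24 for the HH8-HH4 host over time. At a fold of 1.5, 0 members were higher and 0 lower in all 4 libraries. Dividing by the median ratio of all genes gave 5 higher in HH8-HH4 0 hr, a minimum of 1000 UMIs per barcode gave 1 higher there, and a minimum of 500 UMIs per gene gave 1 higher in HH8-HH4 at 3 hr. The cause of these changes was not tested. Under these alternatives the share of all genes past the fold was not counted, so nothing is read from the member counts in this paragraph. The same holds for the member counts given earlier without the largest barcode or with graft from 1 eGFP UMI.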
